A study of Mus musculus with 6 samples.

Results

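The genes described here encode amino acid transporters, the membrane proteins that carry amino acids into and out of cells and across the lysosomal membrane. They were chosen by name alone, as every protein-coding mouse gene of the solute carrier families Slc1, Slc3, Slc7, Slc36, Slc38 and Slc43, which gave 42 genes of the 49671 in the count table. The study asked what AMI-5 does to mouse pancreas differentiation. The AMI-5 group was pancreas of C57BL/6J embryos at 14.5 dpc treated with 10 µM AMI-5, a compound known as an inhibitor of arginine methyltransferases. The control group was pancreas of the same strain and stage labelled as control. Each group had 3 libraries of total RNA. The labels refer to publications not used here for growth and treatment, and the vehicle, the length of treatment and the number of embryos behind each library are not described in the sources used here.

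Amino acid transporters are grouped by what they carry. Some work as pairs: the heavy chain Slc3a2 (4F2hc, CD98) brings light chains of the Slc7 family, such as the large neutral transporter Slc7a5 (LAT1) and the cystine-glutamate exchanger Slc7a11 (xCT), to the cell surface. When amino acids are short, the kinase Gcn2 (Eif2ak4) phosphorylates eIF2α and the transcription factor Atf4 is translated. Atf4 then binds response elements in its target genes, and Slc7a11, Slc3a2, Slc7a5, Slc7a1 and Slc38a2 are known targets. The exocrine pancreas makes large amounts of secreted protein and draws on these carriers for it.

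The AMI-5 libraries held 22894312 to 24805188 counts and the control libraries 12445425 to 13321899, so low genes are measured less well in controls. Per the labels, an earlier version of the library kit was used for the samples marked A. Read literally these are the 3 controls, so kit version and treatment cannot be told apart in any value below. In the second AMI-5 library the liver transcript Alb stood at 254.6 RPKM, against 3.07 and 7.52 RPKM in the other AMI-5 libraries and 4.36 to 5.29 RPKM in controls. Summed acinar markers ranged over 104743 to 132141 RPKM with AMI-5 and over 48208 to 66653 RPKM in controls. Of the 12, 7 were higher and 0 lower by the test used below. Most of the sum was Ctrb1 (means of 79467 RPKM with AMI-5 and 43312 RPKM in controls) and Pnliprp1 (29704 and 10056 RPKM). The acinar transcription factors Ptf1a, Bhlha15 and Rbpjl were not called (log2 fold changes -0.09, 0.12 and -0.54). Of 14 endocrine markers 1 was higher and 6 were lower, with sums of 4668 to 6013 RPKM with AMI-5 and 4287 to 4941 RPKM in controls. Of the 8 erythroid markers 6 were tested, with 5 higher and 1 lower, and their sums were 104 to 307 RPKM with AMI-5 and 17.1 to 46.6 RPKM in controls. The higher globins Hbb-bs, Hbb-bt, Hba-a1 and Hba-a2 share 53.2% to 89.3% of their exonic 50-base stretches with other annotated genes, so their counts are uncertain. Hbb-bs stood at 113 RPKM in the second AMI-5 library, and at 41.6 and 34.4 RPKM in the other AMI-5 libraries. All marker counts, here and below, stand beside shares of 20.1% higher and 30.6% lower among protein-coding genes tested. No gene of the 10 marker lists was at 0 in all libraries. In such whole tissue RNA, fewer cells of a type and less RNA per cell cannot be told apart.

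Levels are given as RPKM, read counts scaled for the kilobases of merged exons of the gene and for the TMM-adjusted size of the library, and values for single libraries run from replicate 1 to 3. Differences were tested with edgeR's quasi-likelihood test over all genes, and adjusted p is the Benjamini-Hochberg value over all of them, with 0.05 as the threshold. "Higher" and "lower" are used of genes past it. Of the 42 transporter genes, 31 passed the filter on low counts. Of these, 10 were higher with AMI-5, 10 were lower and 11 did not pass the test. Across all 17519 genes tested, 27.5% were higher and 26.6% lower, and 54.1% differed either way. Among the 14571 protein-coding genes tested the shares were 20.1% higher and 30.6% lower, or 50.8% either way. With 20 of 31, transporters were called somewhat more often than either background, without a test of that share. In 8 members, or 25.8%, the absolute log2 fold change of a called gene was at least 0.5, against 20.8% of protein-coding genes and 28.9% of all genes. The 3 AMI-5 values were all above the 3 control values in 11 members and all below in 10, against 24.1% above and 35.2% below among protein-coding genes and 31.3% above and 30.6% below among all genes. Their median log2 fold change was 0.09, against -0.06 over protein-coding genes. With trends of fold change on GC content and gene length removed, 12 members were higher and 6 lower. In that fit 4103 of all 17519 genes tested were higher and 4222 lower. The summed level of all 42 members was 499 ± 5.95 RPKM with AMI-5 and 535 ± 24.9 RPKM in controls (SD, n = 3 each).

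By family the counts were as follows. Of 10 Slc7 genes tested, 6 were higher and 2 lower. The Slc1 family had 2 higher and 0 lower of 5. No Slc38 gene was higher and 4 of 9 were lower, and of the 3 Slc43 genes 0 were higher and 2 lower. Beside these stand the shares among protein-coding genes, 20.1% higher and 30.6% lower. Fold changes were above 0 in 4 of the 9 Slc38 genes. The counts are small, and no test compared the families with each other.

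**Figure D1:**
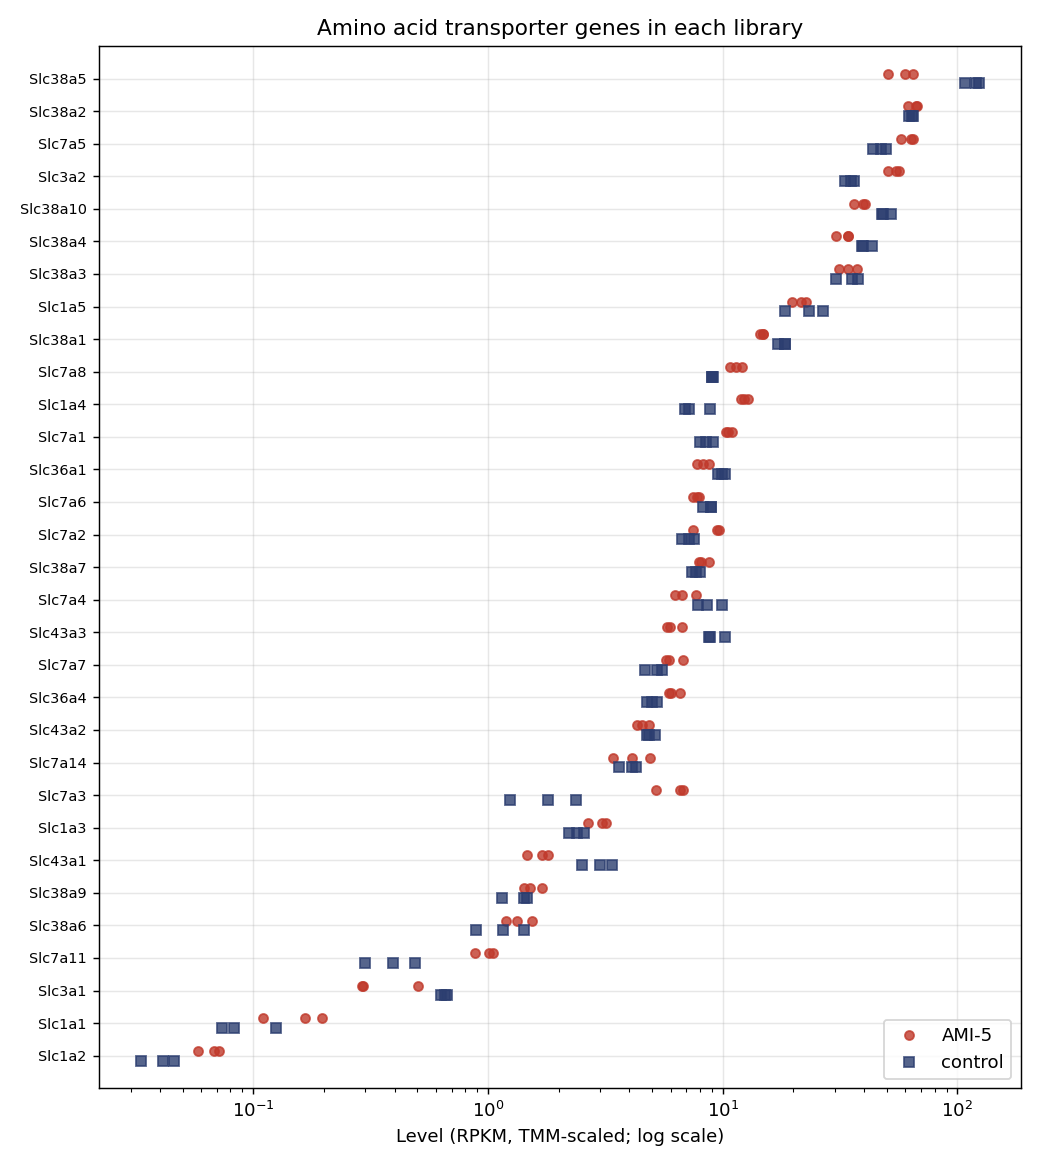
Level of each of the 31 tested transporter genes in each library, in RPKM on a log scale (circles, 3 AMI-5 libraries; squares, 3 control libraries), sorted by the mean of all 6. The levels span from Slc1a2, near 0.05 RPKM, to Slc38a5, which stands at 108 RPKM or more in every control library and at 65.0 RPKM or less in every AMI-5 library.

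**Figure D2:**
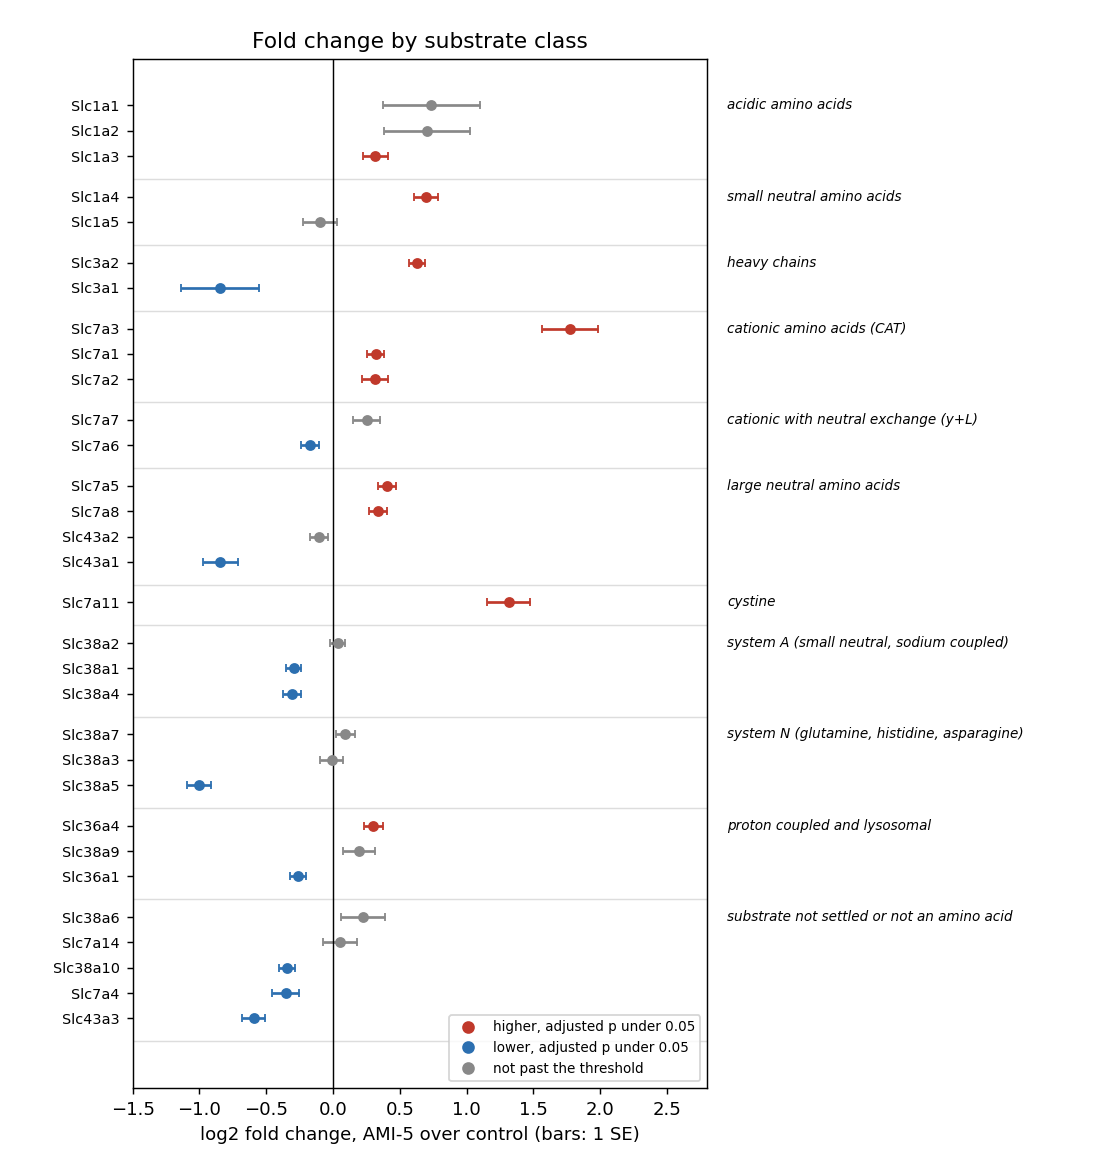
Log2 fold change, AMI-5 over control, of the same genes by substrate class, with bars of 1 SE. All 3 cationic transporters lie right of 0 and past the threshold, while Slc38a5, Slc43a1 and Slc43a3 lie at -0.59 or below.

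Among the heavy chains, Slc3a2 (ENSMUSG00000010095, chr19:8706882-8723369, minus strand, mm10) was higher with AMI-5. Its level was 56.2, 54.8 and 50.4 RPKM in AMI-5 libraries and 36.2, 35.1 and 33.1 RPKM in controls, so the groups were well apart. The log2 fold change was 0.63 (SE 0.062, adjusted p = 4.57e-06), and it stayed between 0.54 and 0.78 under the alternatives tried. The 6 light chains known to pair with Slc3a2 (Slc7a5, Slc7a6, Slc7a7, Slc7a8, Slc7a10 and Slc7a11) summed to 88.4 ± 3.40 RPKM with AMI-5 and 70.3 ± 3.80 RPKM in controls (SD, n = 3 each). The ratio of the heavy chain to this sum was 0.632, 0.599 and 0.595 with AMI-5, against 0.515, 0.474 and 0.498 in controls. The heavy chain transcript thus moved by more than the summed light chains in these libraries, with no overlap of the ratios.

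The other heavy chain, Slc3a1 (rBAT), partner of the kidney cystine carrier Slc7a9, was lower but rests on few reads, and it is described although its mean level fell under the 1 RPKM set for members given in full. It had 15, 26 and 16 reads in AMI-5 libraries and 20, 20 and 20 reads in the shallower controls, or 0.292, 0.502 and 0.293 RPKM with AMI-5 and 0.672, 0.632 and 0.657 RPKM in controls. The log2 fold change was -0.85 (SE 0.29, adjusted p = 0.0281). The call was lost with DESeq2 (adjusted p = 0.113), and also without AMI-5 replicate 1 (-0.71), AMI-5 replicate 3 (-0.70), or control replicate 1 (-0.83), 2 (-0.88) or 3 (-0.85). Exons of Prepl on the opposite strand cover 26.5% of its exonic bases, and the strand setting of the counting is unknown here.

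Large neutral amino acids, among them leucine and the aromatic amino acids, enter cells through Slc7a5 and Slc7a8 (LAT2). Slc7a5 (ENSMUSG00000040010, mm10) stood at 63.3, 64.8 and 57.8 RPKM in AMI-5 libraries and 47.1, 49.9 and 43.7 RPKM in controls (log2 fold change 0.40, SE 0.066, adjusted p = 0.000302). Slc7a8 was at 11.4, 10.7 and 12.04 RPKM with AMI-5 and at 9.09, 8.98 and 8.98 RPKM in controls (log2 fold change 0.34, SE 0.066, adjusted p = 0.00113). Both were higher in every AMI-5 library than in any control.

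The facilitated carrier of the same substrates Slc43a1 (LAT3; ENSMUSG00000027075, chr2:84838850-84863594, plus strand, mm10) went the other way. It had 1.46, 1.80 and 1.70 RPKM in AMI-5 libraries and 2.52, 3.00 and 3.38 RPKM in controls, so the groups did not overlap. The log2 fold change was -0.84 (SE 0.13, adjusted p = 0.000162), with a range of -0.95 to -0.68 over the alternatives. Its relative Slc43a2 (LAT4) had 4.58 ± 0.276 RPKM with AMI-5 and 4.93 ± 0.184 RPKM in controls (SD, n = 3 each) and did not pass the test (log2 fold change -0.11, adjusted p = 0.193). The summed level of this class was 79.6 ± 2.82 RPKM with AMI-5 and 63.8 ± 3.07 RPKM in controls, and most of it was Slc7a5.

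Cationic amino acids (arginine, lysine and ornithine) enter through the CAT proteins Slc7a1, Slc7a2 and Slc7a3, which need no heavy chain, and all 3 were higher. Slc7a3 (CAT-3; ENSMUSG00000031297, chrX:101079210-101086020, minus strand, mm10) had the greatest fold change of the 31 tested members. It stood at 6.78, 6.57 and 5.18 RPKM in AMI-5 libraries and at 1.80, 2.37 and 1.24 RPKM in controls. Its log2 fold change of 1.77 (SE 0.21, adjusted p = 0.000145) ranged over 1.56 to 2.02 under the alternatives. CAT-3 is known mainly from brain, and summed neural markers were 28.9 to 34.0 RPKM with AMI-5 and 39.8 to 44.8 RPKM in controls, with 2 of 8 higher and 3 lower.

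Slc7a1 (CAT-1), the widely expressed member, had 10.6, 10.97 and 10.4 RPKM with AMI-5 and 8.48, 9.08 and 8.01 RPKM in controls (log2 fold change 0.32, SE 0.061, adjusted p = 0.000914). The ratio of Slc7a3 to Slc7a1 was 0.641, 0.599 and 0.5001 with AMI-5 and 0.212, 0.261 and 0.155 in controls. Slc7a2 (CAT-2), known from liver, muscle and activated macrophages, had 7.496, 9.51 and 9.68 RPKM with AMI-5 and 7.17, 7.57 and 6.73 RPKM in controls, and here the groups overlapped. Its log2 fold change of 0.31 (SE 0.096, adjusted p = 0.019) no longer passed without control replicate 1 (0.31) or control replicate 3 (0.27). The 3 genes together reached 25.7 ± 1.17 RPKM with AMI-5 and 17.5 ± 1.52 RPKM in controls (SD, n = 3 each).

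The y+L exchangers Slc7a6 and Slc7a7 trade cationic for neutral amino acids and pair with Slc3a2. Slc7a6 (y+LAT2) had 7.72 ± 0.217 RPKM with AMI-5 and 8.69 ± 0.39 RPKM in controls (SD, n = 3 each). The change of -0.17 on the log2 scale (adjusted p = 0.0474) was no longer called in 15 of 18 alternatives. Among them are the fits without AMI-5 replicate 1 (-0.14), 2 (-0.17) or 3 (-0.16) and without control replicate 1 (-0.16) or 2 (-0.16). Slc7a7 (y+LAT1), which macrophages are known to express, had 5.74, 6.78 and 5.90 RPKM with AMI-5 and 4.68, 5.53 and 5.25 RPKM in controls, and just missed the threshold (log2 fold change 0.25, SE 0.10, adjusted p = 0.0528). It passed in 8 of its 16 alternatives, with 0.31 without AMI-5 replicate 1. Of the 8 leukocyte markers 5 were higher and 0 lower, with sums of 226 to 251 RPKM with AMI-5 and 192.1 to 209 RPKM in controls. Their part in the Slc7a7 and Slc7a2 values was not tested.

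Slc7a11 takes up cystine for glutathione synthesis. The gene (ENSMUSG00000027737, chr3:49892526-50443614, minus strand, mm10) was higher with AMI-5 and, like Slc3a1, is described after its values were seen, since its mean level was 0.688 RPKM. It had 0.877, 1.01 and 1.05 RPKM in AMI-5 libraries and 0.395, 0.487 and 0.299 RPKM in controls. The groups were well apart in spite of the low level (log2 fold change 1.31, SE 0.16, adjusted p = 2.91e-05), and the alternatives gave 1.09 to 1.49.

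Small neutral amino acids are exchanged by Slc1a4 (ASCT1), which carries alanine, serine, cysteine and threonine, and by the glutamine carrier Slc1a5 (ASCT2). Slc1a4 (ENSMUSG00000020142, chr11:20302180-20332713, minus strand, mm10) had 12.4, 12.8 and 11.9 RPKM in AMI-5 libraries and 7.22, 8.82 and 6.89 RPKM in controls. The groups did not overlap (log2 fold change 0.70, SE 0.089, adjusted p = 4.04e-05), and the alternatives gave 0.60 to 0.81. Slc1a5 had 22.7, 19.7 and 21.6 RPKM with AMI-5 and 23.4, 26.7 and 18.5 RPKM in controls, with overlapping groups and no call (log2 fold change -0.10, SE 0.13, adjusted p = 0.539). Without control replicate 3 it was lower (-0.23, adjusted p = 0.0318).

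The promoters of Slc7a11 and Slc1a4 are shown because, of the 7 higher members with a promoter in the RefSeq table used (mm10, GRCm38.p6; 250 bases before to 50 after each start), they were the 2 that held the letters TGATGNAA on either strand. These letters are those of the element bound by Atf4 with C/EBP proteins. Both are given on the minus strand, 5′ to 3′, and capitals mark the matches, which read TTGCATCA where the element lies in reverse.
Slc7a11, chr3:50443614-50443713: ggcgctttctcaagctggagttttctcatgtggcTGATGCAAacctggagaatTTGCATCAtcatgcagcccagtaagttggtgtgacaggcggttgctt
Slc1a4, chr11:20332704-20332803: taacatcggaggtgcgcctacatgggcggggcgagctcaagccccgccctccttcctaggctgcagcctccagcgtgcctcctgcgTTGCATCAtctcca

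The Slc7a11 window held 2 matches in opposite orientation, 11 bases apart, and the Slc1a4 match lay within the last bases before and at the start of the gene. Of the 31 members found in the table, 3 held the letters, Slc7a7 being the other, or 9.68%. The same letters stood in the promoters of 1219 of all 27025 genes, or 4.51%. Of the 7 lower members with a promoter, 0 had a match. Slc3a2, Slc7a1 and Slc38a2, named above as known Atf4 targets, were searched and held no match in the windows used. Of the members called, Slc7a2, Slc7a3, Slc7a4, Slc7a5, Slc38a1 and Slc43a3 had no promoter in the table, so none was searched. A match is a run of letters and not a measured binding site.

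**Figure D3:**
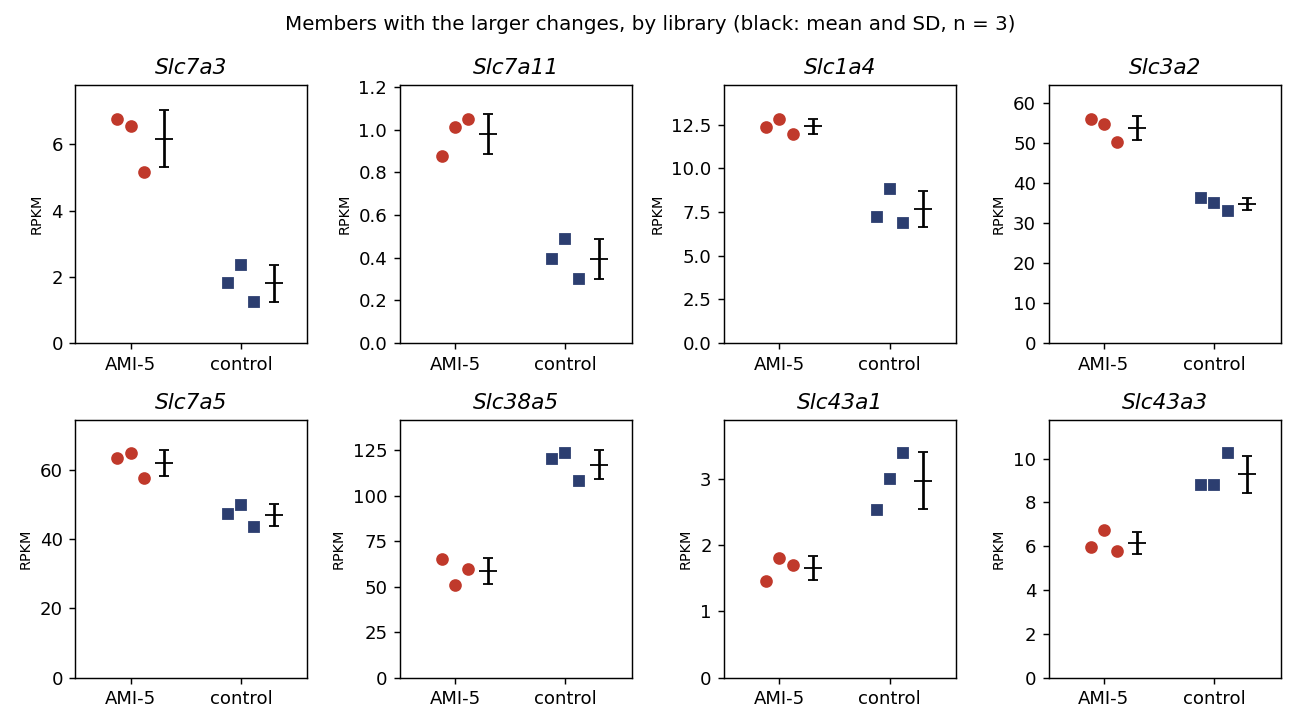
Level in each library of 8 transporter genes, in RPKM on axes that start at 0 (circles, AMI-5; squares, control; black, mean and SD of 3 libraries). In Slc7a3, Slc7a11, Slc1a4, Slc3a2 and Slc7a5 every AMI-5 library is above every control, and in Slc38a5, Slc43a1 and Slc43a3 every AMI-5 library is below.

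Acidic amino acids (glutamate and aspartate) are taken up by the Slc1 glutamate transporters, and these were low in both groups. Slc1a3 (GLAST), known from glia, had 3.07, 3.18 and 2.68 RPKM with AMI-5 and 2.41, 2.21 and 2.56 RPKM in controls (log2 fold change 0.32, SE 0.094, adjusted p = 0.0138). It did not pass without control replicate 2 (0.26, adjusted p = 0.0661). Slc1a1 (EAAC1) had 0.157 ± 0.0441 RPKM with AMI-5 and 0.0940 ± 0.0277 RPKM in controls, and Slc1a2 (GLT-1) had 0.0658 ± 0.0070 RPKM with AMI-5 and 0.0403 ± 0.0065 RPKM in controls (SD, n = 3 each). Neither passed the test at this depth (log2 fold changes 0.74 and 0.70, adjusted p = 0.105 and 0.0846). Slc1a1 counts are uncertain, since exons of 4430402I18Rik on the opposite strand cover 31.9% of its exonic bases.

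The Slc38 family holds the sodium-coupled neutral carriers of system A and system N. System N carriers also move protons and prefer glutamine, histidine and asparagine. Slc38a5 (SNAT5; ENSMUSG00000031170, chrX:8271133-8280179, plus strand, mm10), known in adult mouse islets for its role in alpha cell proliferation, had the highest level of all members in controls and only the third highest with AMI-5. It stood at 65.0, 50.7 and 59.7 RPKM in AMI-5 libraries and at 120, 123 and 108 RPKM in controls. The log2 fold change was -1.002 (SE 0.089, adjusted p = 5.63e-06), and the alternatives gave -1.10 to -0.88. Slc38a5 made up 11.7 ± 1.32% of the summed level of all members with AMI-5 and 21.9 ± 0.478% in controls (SD, n = 3 each). Its fall of 58.6 RPKM between the group means was greater than that of the sum of all members, which was 36.2 RPKM lower with AMI-5. Of the 14 endocrine markers 1 was higher and 6 lower, while their summed level was 4668 to 6013 RPKM with AMI-5 and 4287 to 4941 RPKM in controls. The part of these cells in the Slc38a5 value was not tested.

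The other system N genes did not pass the test on the counts as deposited. Slc38a3 (SNAT3), known in liver and kidney for glutamine transport, had 34.1, 31.4 and 37.5 RPKM with AMI-5 and 35.6, 37.6 and 30.5 RPKM in controls, with full overlap of the groups (log2 fold change -0.01, adjusted p = 0.928). Slc38a7, a glutamine carrier of lysosomes, had 8.22 ± 0.434 RPKM with AMI-5 and 7.72 ± 0.309 RPKM in controls (log2 fold change 0.09, adjusted p = 0.311). With GC and length trends removed Slc38a7 was higher, at 0.27 (adjusted p = 0.00829). System N as a whole made up 20.2 ± 1.72% of the summed member level with AMI-5 and 29.7 ± 0.844% in controls (SD, n = 3 each).

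Of the system A genes, Slc38a2 (SNAT2; ENSMUSG00000022462, mm10), which amino acid shortage is known to induce through Atf4, did not differ by more than the spread between libraries. It had 61.9, 67.4 and 66.7 RPKM with AMI-5 and 62.1, 64.3 and 65.0 RPKM in controls (log2 fold change 0.03, SE 0.056, adjusted p = 0.625). Its neighbours on chromosome 15 were lower. Slc38a1 (SNAT1), 44.5 kb from it, had 14.9, 14.9 and 14.5 RPKM with AMI-5 and 18.5, 18.5 and 17.2 RPKM in controls (log2 fold change -0.29, SE 0.055, adjusted p = 0.000714). Slc38a4 (SNAT4; ENSMUSG00000022464), an imprinted gene known from placenta and liver that lies 295 kb away on the other side, had 34.1, 34.2 and 30.4 RPKM with AMI-5 and 43.2, 39.7 and 39.2 RPKM in controls (log2 fold change -0.31, SE 0.065, adjusted p = 0.00181). No other protein-coding gene lies between these 3.

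Proton-coupled and lysosomal carriers were split. Slc36a4 (PAT4), which carries proline and tryptophan, was higher at 6.04, 6.57 and 5.94 RPKM with AMI-5 and 4.78, 5.003 and 5.26 RPKM in controls (log2 fold change 0.30, SE 0.072, adjusted p = 0.00376). Slc36a1 (PAT1), an exporter of small amino acids from lysosomes, was lower at 7.77, 8.27 and 8.71 RPKM with AMI-5 and 9.90, 10.3 and 9.52 RPKM in controls (log2 fold change -0.26, SE 0.063, adjusted p = 0.00406). With GC and length trends removed the Slc36a1 value was -0.05 and no longer passed (adjusted p = 0.505). Slc38a9, the arginine sensor of lysosomes, had 1.54 ± 0.139 RPKM with AMI-5 and 1.35 ± 0.172 RPKM in controls (SD, n = 3 each) and did not pass (log2 fold change 0.20, adjusted p = 0.19).

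Several members are named in these families without a settled amino acid substrate. Slc43a3 (ENSMUSG00000027074, chr2:84936579-84958509, plus strand, mm10), known to carry purine nucleobases, lies 73.0 kb from Slc43a1 and was lower as well. It had 5.95, 6.72 and 5.78 RPKM with AMI-5 and 8.80, 8.78 and 10.2 RPKM in controls, without overlap (log2 fold change -0.59, SE 0.087, adjusted p = 0.000118). Slc38a10 (ENSMUSG00000061306, mm10) had 40.4, 36.4 and 39.7 RPKM with AMI-5 and 52.2, 47.7 and 48.0 RPKM in controls (log2 fold change -0.34, SE 0.062, adjusted p = 0.000544). Its exons are GC-rich at 58.1%, and with GC and length trends removed the value was -0.01 (adjusted p = 0.954).

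Slc7a4, for which no transport is settled, had 6.69, 6.24 and 7.68 RPKM with AMI-5 and 8.57, 9.89 and 7.87 RPKM in controls (log2 fold change -0.35, SE 0.10, adjusted p = 0.0116). It no longer passed without AMI-5 replicate 1 (-0.32), AMI-5 replicate 2 (-0.27) or control replicate 2 (-0.26), and with the trends removed (-0.15, adjusted p = 0.244). P2rx6 exons on the opposite strand cover 13.3% of its exonic bases. Slc38a6 and Slc7a14 did not pass (log2 fold changes 0.23 and 0.05, adjusted p = 0.278 and 0.763).

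**Figure D4:**
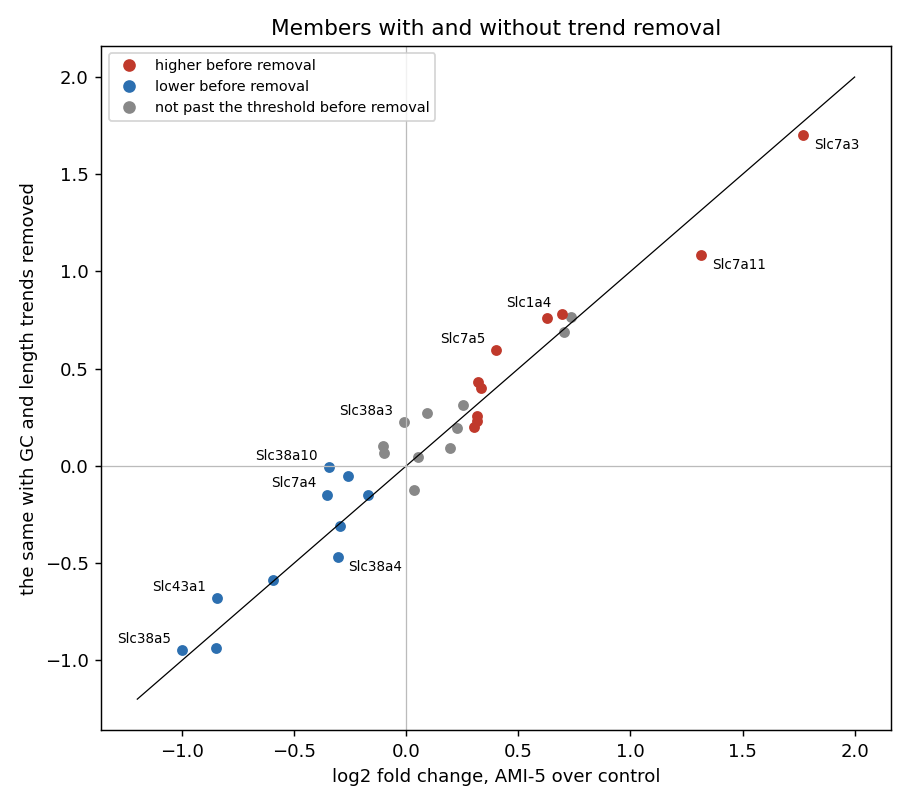
Log2 fold change of each tested member (x axis) against its value with trends on GC content and gene length removed (y axis), coloured by the call before removal, with the line of equal values. The larger changes keep their size, from 1.77 to 1.70 for Slc7a3 and from -1.002 to -0.95 for Slc38a5, while Slc38a10 moves to -0.01.

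The 11 members under the filter had at most 16 reads in any library. Slc1a6, a glutamate transporter of the cerebellum, had 8 to 15 reads in AMI-5 libraries and 6 to 14 reads in controls. Slc7a10, Slc38a8, Slc36a2, Slc38a11, Slc1a7 and Slc7a9 summed to 25, 23, 23, 12, 10 and 9 reads over the AMI-5 libraries and to 11, 5, 8, 5, 8 and 1 reads over the shallower controls. Slc7a15 and Slc7a13 had 1 and 0 reads with AMI-5 and 0 and 2 reads in controls. Slc7a12 and Slc36a3 had 0 reads in all 6 libraries, which allows up to 0.0158 RPKM for Slc7a12 and 0.0116 RPKM for Slc36a3, from 3 reads over all 109378817 counts and for counting error only.

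The genes around the transporters were followed in 3 lists. The amino acid response list holds Gcn2 (Eif2ak4), eIF2α (Eif2s1) and Atf4 themselves beside genes known to follow them. Eif2ak4 and Eif2s1 were not called (log2 fold changes -0.11 and 0.06, adjusted p = 0.169 and 0.403). Which signal lay behind the changes in this list was not tested. Of its 24 tested genes 15 rose and 4 fell, and the median over the list was 0.62 on the log2 scale. The shares among all protein-coding genes tested were 20.1% higher and 30.6% lower. Trib3, a pseudokinase induced by Atf4, was chosen after its values were seen. It had 43.2, 40.1 and 29.5 RPKM in AMI-5 libraries and 4.23, 4.90 and 3.46 RPKM in controls (log2 fold change 3.16, SE 0.20, adjusted p = 1.86e-05). Ddit3 (CHOP), a transcription factor of prolonged stress, had 31.9, 29.8 and 24.7 RPKM with AMI-5 and 9.41, 10.6 and 10.2 RPKM in controls (log2 fold change 1.51, SE 0.10, adjusted p = 1.51e-07). The transcription factors Atf5 and Cebpg rose as well, with log2 fold changes of 1.03 and 0.84, as did the lipoprotein receptor Vldlr (1.17) and the stress protein Nupr1 (1.11).

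Asparagine synthetase, Asns, averaged 87.9 ± 5.26 RPKM with AMI-5 and 54.8 ± 6.44 RPKM in controls (SD, n = 3 each; log2 fold change 0.68, adjusted p = 4.89e-05). Atf4 itself, which is controlled mainly in translation, had a log2 fold change of 0.23 (adjusted p = 0.0339), and that call was lost without AMI-5 replicate 1 (0.18) or control replicate 3 (0.14). The 4 lower genes were the mTORC1 inhibitor Ddit4 (-0.57), the transcription factor Cebpb (-0.61) and the serine and glycine pathway enzymes Phgdh (-0.53) and Shmt2 (-0.34). Phgdh shares 47.8% of its exonic 50-base stretches with other annotated genes, so its counts are uncertain. The letters TGATGNAA stood in the promoters of 7 of the 23 list genes found in the RefSeq table, or 30.4%. They stood in 6 of the 13 higher ones and in 4.51% of all genes of that table. Because the list was made up largely of genes known to follow Atf4, its share is no test of Atf4 action here.

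**Figure D5:**
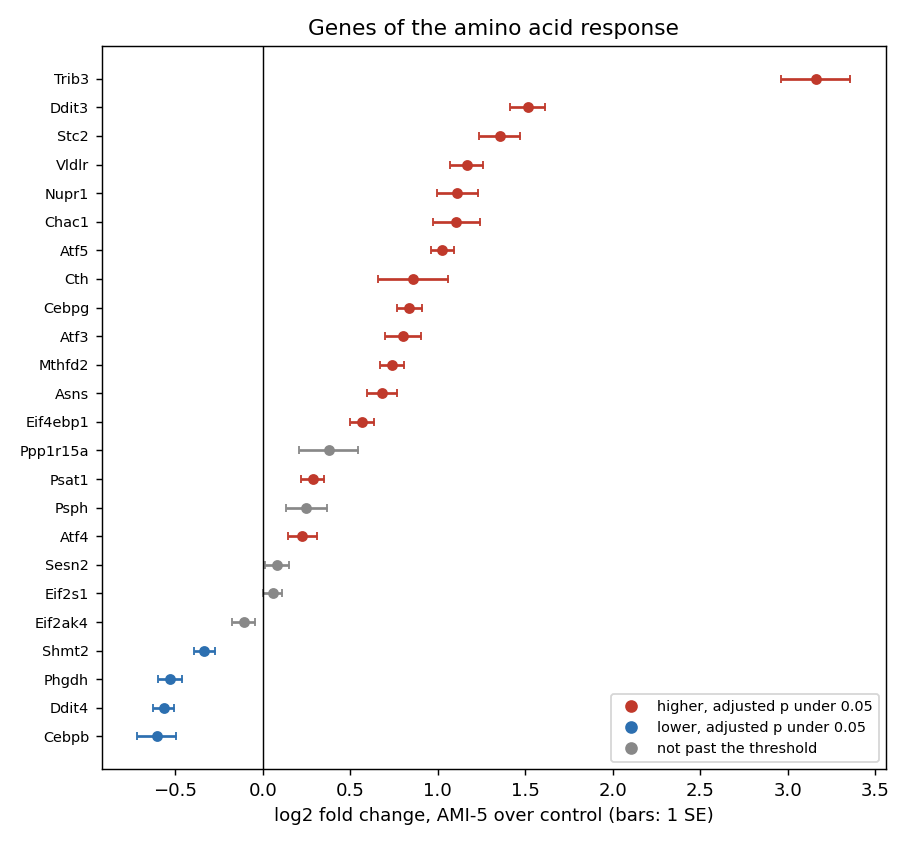
Log2 fold change, AMI-5 over control, of the 24 tested genes of the amino acid response, with bars of 1 SE and colours for the call. Trib3 at 3.16 and Ddit3 at 1.51 stand far right of 0, and Ddit4, Cebpb, Phgdh and Shmt2 lie left of it past the threshold.

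The machinery that reports amino acids to the kinase mTORC1 at the lysosome was followed next. Of its 32 tested genes 14 were lower and 6 higher, and the median over the list was -0.18 on the log2 scale. Among all protein-coding genes tested 30.6% were lower and 20.1% higher. The number of higher genes in the list was 2 without control replicate 2 and 2 with scaling by totals alone, and the number of lower genes was 8 with trends removed over unique-sequence genes, where fewer genes were tested. Lower genes included the Ragulator subunits Lamtor1 (-0.54), Lamtor2 (-0.32) and Lamtor4 (-0.57), and the folliculin partner Fnip1 was higher (0.68). The Rag GTPase Rraga had 54.3 ± 2.86 RPKM with AMI-5 and 54.3 ± 1.58 RPKM in controls (SD, n = 3 each; adjusted p = 0.984). Of Lamtor1, 25.6% of the exonic 50-base stretches occur in other genes.

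Amino acid carriers outside the 6 families showed no common direction. There were 7 higher and 8 lower of 23 tested, with a list median of -0.13 on the log2 scale. Shares among all protein-coding genes tested were 20.1% higher and 30.6% lower, and over all genes 27.5% and 26.6%. The number of lower genes was 4 without AMI-5 replicate 2, 4 with DESeq2, 5 over protein-coding genes only and 5 with trends removed. Over unique-sequence genes, where fewer genes were tested, it was 4. With trends removed over those genes 2 were lower and 3 higher. The glycine transporter Slc6a9 (log2 fold change 0.37) and the aromatic amino acid carrier Slc16a10 (0.38) were higher, and the taurine transporter Slc6a6 (-0.36) and the lysosomal histidine and peptide carrier Slc15a4 (-0.48) were lower. Slc6a20b had the largest change of the named ones (3.02) at a level of 0.148 ± 0.0420 RPKM with AMI-5 and 0.0177 ± 0.000547 RPKM in controls (SD, n = 3 each), and 27.9% of its exonic 50-base stretches occur in other genes.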

How the data were processed

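The values analysed were the deposited read counts per gene, not normalized, in 1 table with 6 library columns and a column of gene length in bases of merged exons. The submitters' processing notes name bcl2fastq 2.19.1, GSNAP, featureCounts 1.6.2 and build mm10. Strand setting and handling of multi-mapping reads are not given here, so counts of genes that overlap others or share sequence are uncertain. Per the labels, library preparation kept strand.

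The 92 spike-in sequences, with 1 read in all, were left out, which left 49671 genes. Symbols and GC content came from GENCODE M21. Tests used edgeR 4.0.16 under R 4.3.3 (TMM, filterByExpr, robust quasi-likelihood F test, two-sided, group as the only term, Benjamini-Hochberg adjusted p under 0.05). Fold changes are AMI-5 over control. Alternatives used limma 3.58.1 and DESeq2 1.42.0. The fits were also run on simulated data, in which far fewer genes changed than were called here, evenly in both directions. Such data do not test the scaling between these libraries. Nothing says that replicates were separate cultures or animals, so p-values measure only how these samples vary, which may be technical.

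The members and lists were chosen with earlier results of these data known. Members described in full were those past the threshold that changed by 0.5 or more on the log2 scale with a mean of at least 1 RPKM, and the 6 of highest mean. From each list, up to 4 genes past the threshold by p and the 2 of highest mean were named. The others named (Trib3, Asns, Atf4, Eif2ak4, Eif2s1, Cebpb, Phgdh, Shmt2, Alb, Ptf1a, Bhlha15 and Rbpjl) were chosen after their values were seen. Some genes that the rule would name are not reported here.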

Additional observations from a re-analysis of the deposited data

How the results depend on the processing

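Over 18 alternatives, 540 values of the 31 tested members were computed, and 469 kept their direction and their side of the threshold. No called member changed direction. With 10 members higher and 10 lower as reported, the number lower was 6 with GC and length trends removed and 5 with them removed over genes of unique sequence, an alternative chosen after seeing the data in which 24 members could be tested. Leaving out 1 library gave 9 to 11 members higher and 7 to 10 lower, of 30 to 34 tested. Over all genes these fits gave 4481 to 4744 higher and 3954 to 4316 lower, of 17064 to 18492 tested. Over all genes 9472 were called (4820 higher, 4652 lower), against 5228 among unique-sequence protein-coding genes and 4241 among these with trends removed (1650 higher, 2591 lower). Scaling by totals alone gave 3962 higher and 5883 lower over all genes, 8 members higher and 11 lower, and lost the calls of Slc7a2 (0.22) and Slc1a3 (0.22).

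Whether same-numbered libraries were paired is not described. Their deviations from the group means correlated at -0.058 to -0.038, and those of differently numbered libraries at -0.017 to 0.063. Such correlations cannot show whether libraries shared a culture or animals. With the replicate block, 9186 genes were called, 11 members were higher and 8 lower, and Slc3a1 did not pass (-0.87).

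Values of uncalled genes near 0 changed sign. Slc38a3 was 0.011 with RLE scaling, 0.037 with upper-quartile scaling, 0.0094 with no filter, 0.0095 with the 1 CPM filter, 0.011 with DESeq2, 0.042 over protein-coding and 0.041 over unique-sequence genes, and 0.23 and 0.20 with trends removed. Slc38a2 was -0.059 with totals alone and -0.13 and -0.12 with trends removed. Totals alone gave -0.0018 for Slc38a7, -0.042 for Slc7a14 and -0.091 for Rraga. With trends removed Slc1a5 was 0.065, or 0.069 over unique-sequence genes, Slc43a2 was 0.10, and Rraga was -0.15 and -0.12. Leaving out 1 library gave -0.096 to 0.074 for Slc38a3, -0.23 to 0.023 for Slc1a5, -0.074 to 0.19 for Slc7a14 and -0.028 to 0.061 for Rraga. Depth limits Slc3a1, Slc1a1, Slc1a2 and the untested members, and for Slc3a1 and Slc1a1 exon overlap on the opposite strand does so too.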
